A study of Mus musculus with 3 samples.

Results

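The cells described here were Langerhans cells from the ear epidermis of mice, taken after repeated microneedle punches or without them. Langerhans cells are the antigen-presenting cells that live between the keratinocytes of the epidermis. They take up antigen with receptors such as Langerin (Cd207), hold on to their neighbours with Epcam and E-cadherin (Cdh1), and present peptides on MHC class II molecules. After injury some of them switch on the chemokine receptor Ccr7 and leave for the lymph node, while others stay in the skin, and it is the cells without Ccr7 that are compared.

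The study profiled single cells of Langerhans cell-enriched epidermis from male Cd1 mice (an outbred stock) by droplet-based 3' RNA sequencing, with 1 library for each of 3 treatments. The untreated group had received only a depilatory cream (Nair), which per the labels' protocols was given at the same time as in the experimental animals. The microneedle group had received multiple punches with a microneedle device, and a further group had received croton oil (an irritant plant oil) with acetone and olive oil. Ears of the treated mice were collected 48 hours after the first treatment, and the epidermis was freed with trypsin, dissociated mechanically, depleted of dead cells and enriched magnetically for Langerhans cells. The labels used here state no age, no genetic modification and no number of animals behind a library. The microneedle and the untreated library differ in everything that separates 2 preparations, so treatment and library cannot be told apart, and no test over samples was possible.

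A cell was taken as a Langerhans cell without Ccr7 when it met every one of these conditions. No fewer than 500 genes were detected in it, and mitochondrial genes gave no more than 10% of its unique molecular identifiers (UMIs, each standing for 1 captured RNA molecule). Cd74, H2-Aa, H2-Ab1 and H2-Eb1 together made up at least 2% of its UMIs, and it had at least 2 UMIs of Epcam. It had fewer than 3 UMIs of the T cell genes Cd3e, Cd3g and Cd3d, under 0.1% of UMIs from S100a8 and S100a9 and under 0.1% from Krt14, Krt5, Krt1 and Krt10, and no UMI of Ccr7. The rule kept 14807 of the 16821 cells deposited for these groups, out of 25062 in the series. In the untreated library 9345 of 9827 cells of adequate quality passed, or 95.1% (exact 95% binomial interval 94.6 to 95.5). In the microneedle library 5462 of 6855 passed, or 79.7% (78.7 to 80.6). The microneedle cells that did not pass lacked the MHC class II share in 1145 cases, Epcam in 959 and the low S100a8 and S100a9 share in 545, with overlap among these. Ccr7 was present in 264 of the good microneedle cells and in 26 of the untreated ones. All intervals given here are at 95% and account for counting error alone, not for differences between animals or preparations.

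The kept cells were deeper in the microneedle library, with a median of 17451 UMIs and 4344 genes per cell against 11646 UMIs and 3570 genes in the untreated library. They summed to 118898112 untreated and 100903926 microneedle UMIs. Their median mitochondrial share was 1.54% and 1.38%. Levels are therefore given as CPM, which scales the UMIs of a gene by all UMIs summed over the kept cells of the library. Shares of cells are given after every cell had been thinned at random to 3000 UMIs, which left out 100 untreated and 50 microneedle cells below that depth. The croton oil levels quoted further on come from 5868 cells chosen by the same rule. The untreated and microneedle libraries had 17 cell barcodes in common, 0.172% of the untreated ones. Among the cells outside the rule, the microneedle library held 349 cells classed as neutrophils (at least 2% of UMIs from S100a8 and S100a9, no Epcam) and 227 classed as monocytes or macrophages (at least 3 of their markers, no Epcam or Cd207). The untreated library held 0 and 1 of these, and 62 cells classed as keratinocytes.

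The label was checked on markers that the rule did not use. Cd207 stood at 573 CPM in the untreated cells and 461 CPM in the microneedle cells, and without thinning 97.4% and 95.3% of cells had at least 1 UMI of it. After thinning the shares were 76.9% and 65.5%, against 3.08% of the microneedle neutrophil class, whose median depth before thinning was 3304 UMIs. Cdh1, the adhesion molecule that ties these cells to keratinocytes, was at 384 and 306 CPM. Mfge8, a bridge between dying cells and phagocytes, was at 460 and 1201 CPM, and the surface glycoprotein Cd24a at 200 and 381 CPM. Both sets of cells thus carried these 4 markers of Langerhans cells.

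Markers of other cell types were then summed over the kept cells. The 12 keratinocyte markers that the rule did not use summed to 91.3 CPM in the untreated cells and 55.1 CPM in the microneedle cells. The 16 monocyte and macrophage markers summed to 123 and 86.8 CPM, most of it Selenop at 97.9 and 52.9 CPM. The 11 T cell markers summed to 24.4 and 26.7 CPM, with Trbc1 at 0 in both. The 12 neutrophil markers summed to 2525 and 3982 CPM, of which Il1r2, a decoy receptor for interleukin-1, gave 2514 and 3974 CPM, and Ly6g was at 0 in both. Markers of conventional dendritic cells summed to 159 and 118 CPM and those of melanocytes to 51.0 and 93.4 CPM, of which Mitf gave 49.8 and 85.5 CPM. Markers of fibroblasts and endothelium summed to 9.60 and 14.9 CPM. Of 8 mast cell markers 5 were at 0 in both sets, and Kit gave most of the summed 11.2 and 18.6 CPM. The part of such cells in the differences described next was not tested beyond the free-RNA levels given with them. Free RNA reached the microneedle cells at a small fraction of its source, 0.0825% of the level in neutrophils and 0.324% of that in monocytes and macrophages, and the untreated cells at 0.209% of the level in keratinocytes. The microneedle classes of 40 keratinocytes and 18 T cells were too small for such an estimate.

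Microneedle cells differed from untreated cells mostly by gains. Of 6696 genes with at least 20 CPM in either set, 256 were at least 2-fold higher in the microneedle cells (3.82%) and 117 at least 2-fold lower (1.75%), 373 in all (5.57%), and the median log2 change over all of them was 0.02. Changes were computed as log2 of (CPM + 5) in microneedle over (CPM + 5) in untreated cells, so that changes of genes with few UMIs come out smaller than they were. At 4-fold the counts were 53 higher and 8 lower, and at 8-fold 12 higher and 0 lower. Of the 256 higher genes 114 reached 20 CPM only in the microneedle library, and of the 117 lower ones 55 only in the untreated library. Such genes entered the comparison through the set in which they were high, which bears on every count of list members that follows. The counts at 8-fold depend on the added 5 CPM: with 1 CPM added they were 27 and 3, and with none 35 and 5, the lower ones then being Prex2, Ccl17, Krt2, Hdac9 and Fhit, of which Krt2 was below the free-RNA level. The threshold fell within a continuous range of values, with 25 genes within 0.05 below a log2 change of 1 and 28 within 0.05 above it. By share of cells, 264 genes were at least 10 percentage points higher (3.94%) and 228 lower (3.41%), and 143 of the 256 and 54 of the 117 also moved by that much in share. The plot of summed levels shows this asymmetry.

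**Figure D1:**
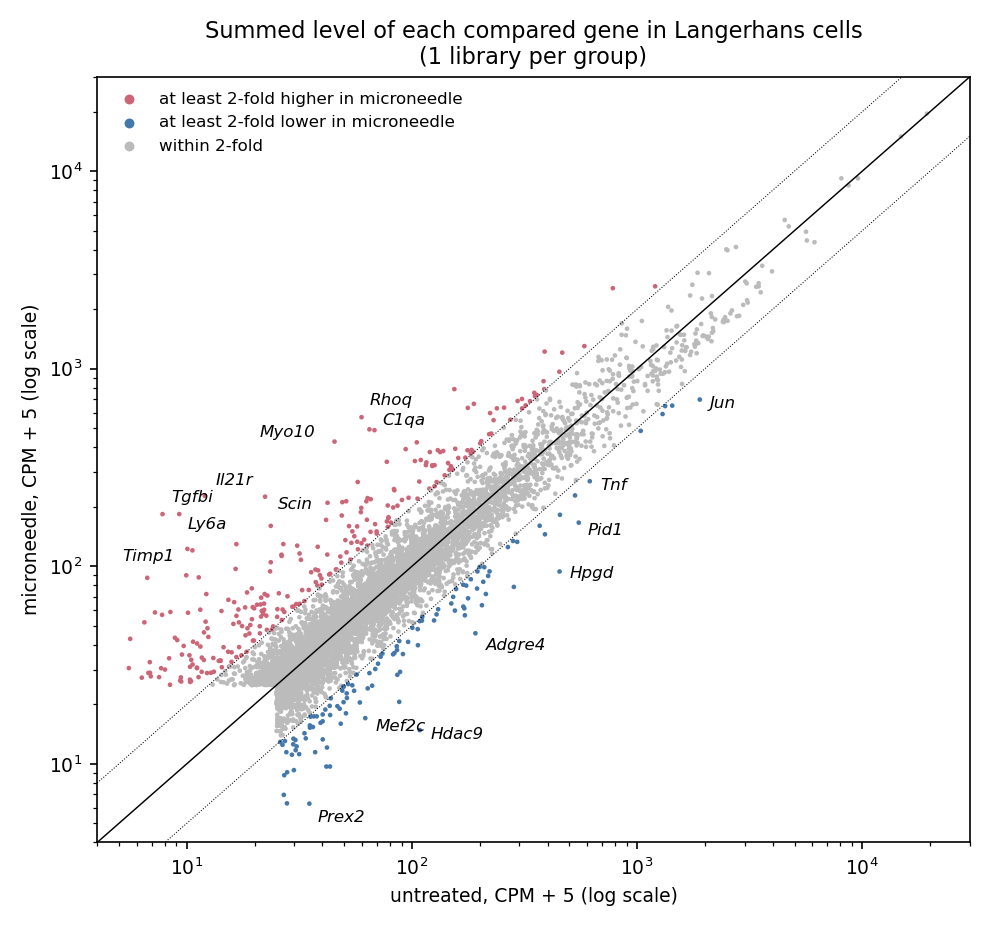
Summed level of each of the 6696 compared genes in untreated (horizontal) and microneedle (vertical) Langerhans cells, as CPM + 5 on log axes, with 1 point per gene. The solid line marks equal levels and the dotted lines a 2-fold difference; the 256 higher genes reach farther from the line than the 117 lower ones.

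Tgfbi (ENSMUSG00000035493, chr13:56757336-56787375 on GRCm39), which encodes a secreted matrix protein, had the largest log2 change, 4.56. It had 333 UMIs in the untreated cells, or 2.80 CPM (exact Poisson interval 2.51 to 3.12), and 18022 in the microneedle cells, or 179 CPM (176 to 181). Its thinned share of cells was 0.703% and 32.7%. Other cells of the same library held more of it, with 1105 CPM in monocytes and macrophages, 297 CPM in the 40 keratinocytes and 245 CPM in neutrophils. The level in the Langerhans cells was 49.9 times what free RNA from the monocytes and macrophages would give, and no such estimate was had for the keratinocytes. In croton oil cells it stood at 158 CPM, close to the microneedle value.

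Ly6a (ENSMUSG00000075602, chr15:74863840-74869880), the interferon-inducible surface protein Sca-1, followed at 4.26 CPM (3.89 to 4.64) and 179 CPM (176 to 181), a log2 change of 4.31. The share of cells with Ly6a was 1.20% in untreated and 27.6% in microneedle cells, against 2.20% of the microneedle neutrophil class. Other cells of that library held it too, at 198 CPM in the monocyte and macrophage class, 211 CPM in 18 cells classed as T cells and 336 CPM in 40 cells classed as keratinocytes. Of those with at least 3000 UMIs, 22.01%, 38.9% and 60.7% had a Ly6a UMI after thinning. The part of these cells in the Ly6a level of the Langerhans cells was not tested beyond the free-RNA estimate from monocytes and macrophages, which the level exceeded 278 times. Croton oil cells lay between, at 56.6 CPM and 11.97% of cells. Il21r (ENSMUSG00000030745, chr7:125202601-125232756), the receptor chain for interleukin-21, went from 7.02 CPM (6.55 to 7.52) to 222 CPM (219 to 225), with a log2 change of 4.24 and shares of 1.80% and 34.5%. Here the croton oil level, 206 CPM, was near the microneedle one. Timp1, an inhibitor of matrix metalloproteases on chrX:20736316-20740976, stood at 1.67 and 82.4 CPM, a log2 change of 3.71, and in 0.422% and 17.1% of cells.

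The other 8 of the 12 largest gains were of varied kinds, with log2 changes between 3 and 3.60. Htr7, a serotonin receptor, was at 5.59 and 115 CPM. Others act on the cytoskeleton. Scin, an actin-severing protein, was at 17.3 and 220 CPM, Myo10, the motor of filopodia, at 40.3 and 422 CPM, and the small GTPase Rhoq at 54.7 and 563 CPM. Scube1, a secreted and membrane-bound protein with EGF-like domains, was at 4.95 and 85.0 CPM, and Pmepa1, a feedback inhibitor of TGF-beta signalling, at 2.22 and 53.4 CPM. The remaining pair, 4930523C07Rik (5.06 and 117 CPM) and Gm17276 (1.48 and 47.0 CPM), have no established role that can be given here. The UMIs of these 8 genes were unevenly shared among the microneedle cells. Without thinning Scin had UMIs in 29.1% of cells, and the 55 cells highest in it, 1% of all, held 28.0% of its UMIs. For Gm17276 these values were 17.5% and 26.1%, whereas Rhoq was seen in 86.7% of cells and its 55 highest cells held 5.78%.

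The gains in share of cells were broadest for Rhoq, from 10.7% (10.1 to 11.3) to 62.9% (61.6 to 64.2), and for C1qa, a chain of the complement component C1q, from 15.2% to 64.0%. Lpar1, a receptor for lysophosphatidic acid, went from 13.4% to 57.0%, Pde4b, a phosphodiesterase that degrades cyclic AMP, from 28.2% to 65.8%, and Crip1, a small LIM-domain protein, from 24.7% to 60.9%. Each of these 5 genes was therefore seen in most microneedle cells thinned to 3000 UMIs and in fewer than 3 in 10 untreated ones. At 5000 UMIs Pde4b was in 36.5% and Crip1 in 32.5% of untreated cells, against 74.3% and 69.0% of microneedle cells. Rhoq, C1qa and Lpar1 stayed under 3 in 10 untreated cells there, at 15.5%, 22.8% and 20.9%. In croton oil cells thinned to 3000 UMIs the shares of the 5 genes were of the same order as in microneedle cells, from 53.7% for Lpar1 to 90.6% for C1qa.

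Hdac9 (chr12:34097579-34967094), a class IIa histone deacetylase, had the lowest log2 change with 5 CPM added, while Prex2 and Ccl17 came below it when 1 CPM was added (-3.76 and -3.37, against -3.27 for Hdac9). It stood at 103 CPM (102 to 105) in untreated and 9.80 CPM (9.20 to 10.4) in microneedle cells, a log2 change of -2.87, and in 19.7% and 2.31% of cells. Croton oil cells kept more of it, 37.5 CPM. Mef2c, a transcription factor whose activity class IIa deacetylases restrain, was also lower, at 57.0 and 12.03 CPM (log2 change -1.87). Other members of both families differed little: Mef2a had a log2 change of -0.24, Mef2d of -0.38, Hdac5 of -0.22 and Hdac4 of 0.43.

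Hpgd (chr8:56747543-56774082), the dehydrogenase that inactivates prostaglandins, was at 447 CPM (444 to 451) in untreated and 89.1 CPM (87.2 to 90.9) in microneedle cells, a log2 change of -2.27. Its share of cells was 64.8% against 19.0%, the largest difference in share among the lower genes. Prex2, an activator of the GTPase Rac, was at 30.02 and 1.29 CPM (-2.48), while its relative Prex1 had a log2 change of 0.35. Fhit, a tumour suppressor that hydrolyses dinucleoside polyphosphates, was at 38.2 and 4.69 CPM (-2.16), and Sntb1, a scaffold of the dystrophin complex, at 36.7 and 4.69 CPM (-2.11). Adgre4, an adhesion receptor of myeloid cells, was at 186 and 40.8 CPM (-2.06). Hcar2, the receptor for niacin and ketone bodies, was at 278 and 73.6 CPM (-1.85). Cd209d, a C-type lectin, was at 36.9 and 7.09 CPM (-1.79), and F830045P16Rik at 82.8 and 15.6 CPM (-2.09).

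Pid1, an adaptor that dampens insulin signalling, was at 545 and 161 CPM (-1.73) and in 71.1% and 29.8% of cells. Nedd4, a ubiquitin ligase, was at 449 and 177 CPM and in 71.6% and 37.0% of cells, and Dipk1a at 525 and 223 CPM and in 74.3% and 43.9%. These 3 genes had been detected in most untreated cells, and none of the 12 highest gains had been seen in more than 10.7% of them. A wide fall in share needs a high starting share, and a large log2 gain favours a low one, so this contrast follows in part from the choice of genes. Without thinning, Prex2, Fhit and Sntb1 among the 12 lowest were in 19.0%, 18.2% and 18.2% of untreated cells. Rhoq and Myo10 among the 12 highest were in 25.6% and 26.3%. Ccl17, a chemokine that attracts T cells, also met the rule for the 12 lowest, at 22.9 and 1.31 CPM (-2.14), but with few cells behind it. Only 40 of the 9345 untreated cells had a UMI of it, and 1 cell alone had 552 of the 2717 UMIs. Its thinned share was 0.184% and 0.203%, with overlapping intervals (0.107 to 0.294 and 0.102 to 0.363). Leaving out the cells above the 95th percentile of UMIs gave a log2 change of -0.66 for Ccl17.

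**Figure D2:**
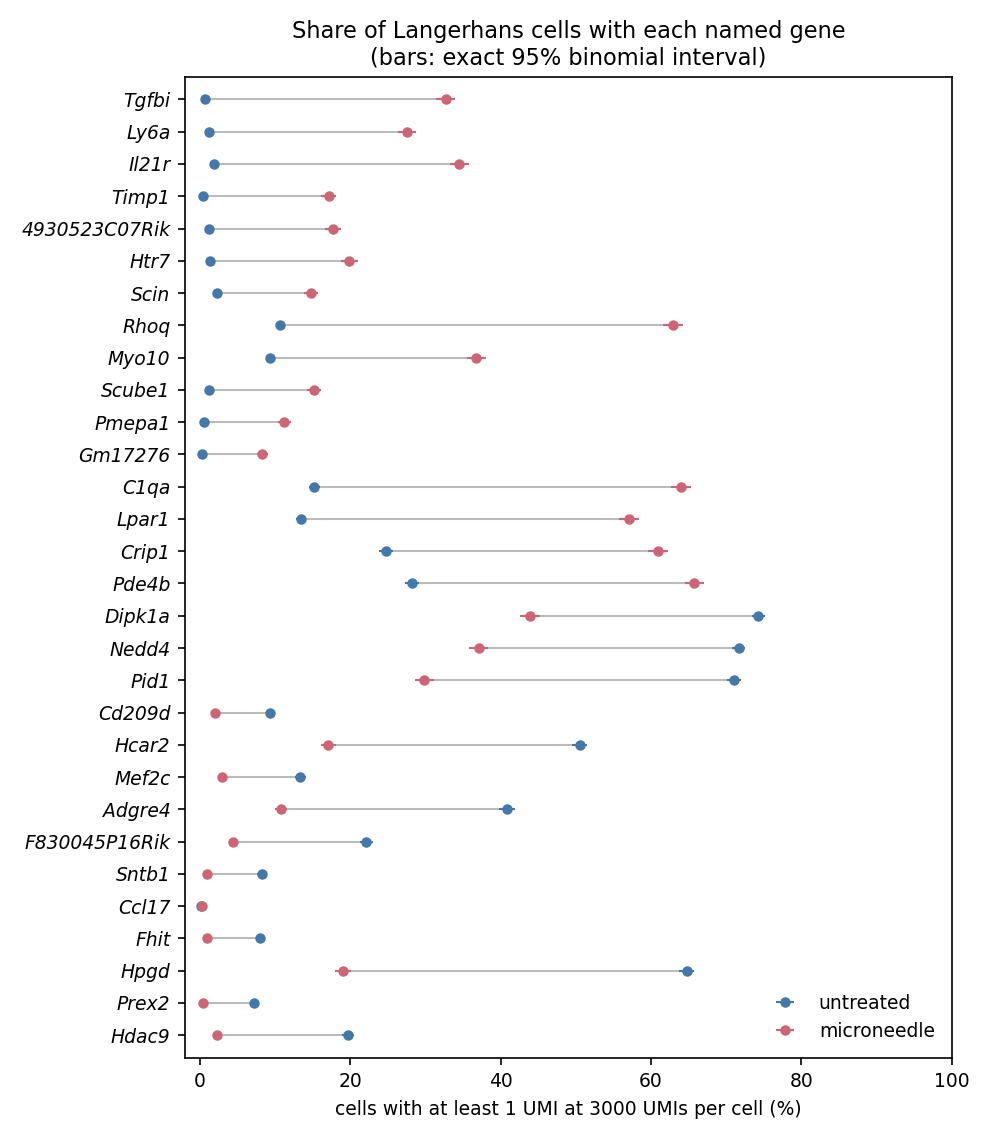
Share of Langerhans cells with at least 1 UMI of each named gene after thinning to 3000 UMIs per cell, in untreated (blue) and microneedle (red) cells, with exact 95% binomial intervals that are mostly narrower than the points. Genes are ordered from the highest log2 change (Tgfbi) to the lowest (Hdac9); Rhoq and C1qa show the widest gains and Hpgd the widest loss, while the points of Ccl17 coincide.

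The genes of cholesterol and fatty acid synthesis were the list with the highest median. Cholesterol is built from acetyl-CoA by way of mevalonate, squalene and lanosterol, and when sterols are low the transcription factor SREBP-2 switches on the enzymes of this route. Of 22 genes of the list that could be compared, 14 were at least 2-fold higher and 0 lower, with a median log2 change of 1.46, against 3.82% and 1.75% of all genes and a median of 0.02. Of the 22 genes 7, of which 5 were higher, reached 20 CPM only in the microneedle library, and over all 26 listed genes with no such requirement 15 were higher and 0 lower, with a median of 1.17. The list was drawn up with earlier results of these data known, and its genes were not tested as a set. Summed over the list, the level was 1105 CPM in untreated, 2929 CPM in microneedle and 1902 CPM in croton oil cells.

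The higher genes ran along the sterol pathway. At its start, Hmgcs1, the synthase that makes HMG-CoA, was at 104 CPM (103 to 106) and 340 CPM (336 to 344), a log2 change of 1.66. Mevalonate kinase (Mvk) came just under the threshold at 10.6 and 26.0 CPM (1.00). In the isoprenoid steps, Idi1 was at 58.5 and 216 CPM (1.80) and Fdps, which makes farnesyl diphosphate, at 21.8 CPM (21.0 to 22.7) and 124 CPM (122 to 127), a log2 change of 2.27 and the highest of the list. Fdft1, the squalene synthase, was at 9.26 and 54.3 CPM (2.06), and Sqle, the squalene epoxidase, at 18.6 and 99.8 CPM (2.15).

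The later enzymes followed. Cyp51, the lanosterol demethylase, was at 78.2 and 241 CPM (1.56), and Msmo1, a sterol methyl oxidase, at 88.7 and 387 CPM (2.06). Insig1, a brake on SREBP processing, was at 43.1 and 107 CPM (1.22). The regulators themselves moved less: Srebf2, the gene of SREBP-2, was at 170 and 284 CPM (0.72) and Srebf1 at 21.6 and 22.7 CPM (0.06). Of the sterol enzymes named here each was higher in the microneedle cells, with only Mvk under 2-fold.

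The fatty acid enzymes were divided. Elovl6, an elongase, was at 11.95 and 55.4 CPM (1.83), Scd1, a desaturase, at 14.6 and 57.1 CPM (1.66), and Acsl4, which activates polyunsaturated fatty acids, at 64.7 and 145 CPM (1.11). Fasn (0.80), Elovl1 (0.51), Acaca (0.45), Acly (0.28) and Scd2 (-0.10) were within 2-fold on the log2 scale. Judged in the library where each gene was higher, levels of all 22 genes were at least 229 times what free RNA would give from the classes that allowed an estimate, the neutrophil and the monocyte and macrophage class in the microneedle library and keratinocytes in the untreated one. The 40 microneedle keratinocytes, for which there was none, had some of these genes at higher levels than the Langerhans cells, with Fdps at 328 CPM and Sqle at 140 CPM, and their part was not tested.

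**Figure D3:**
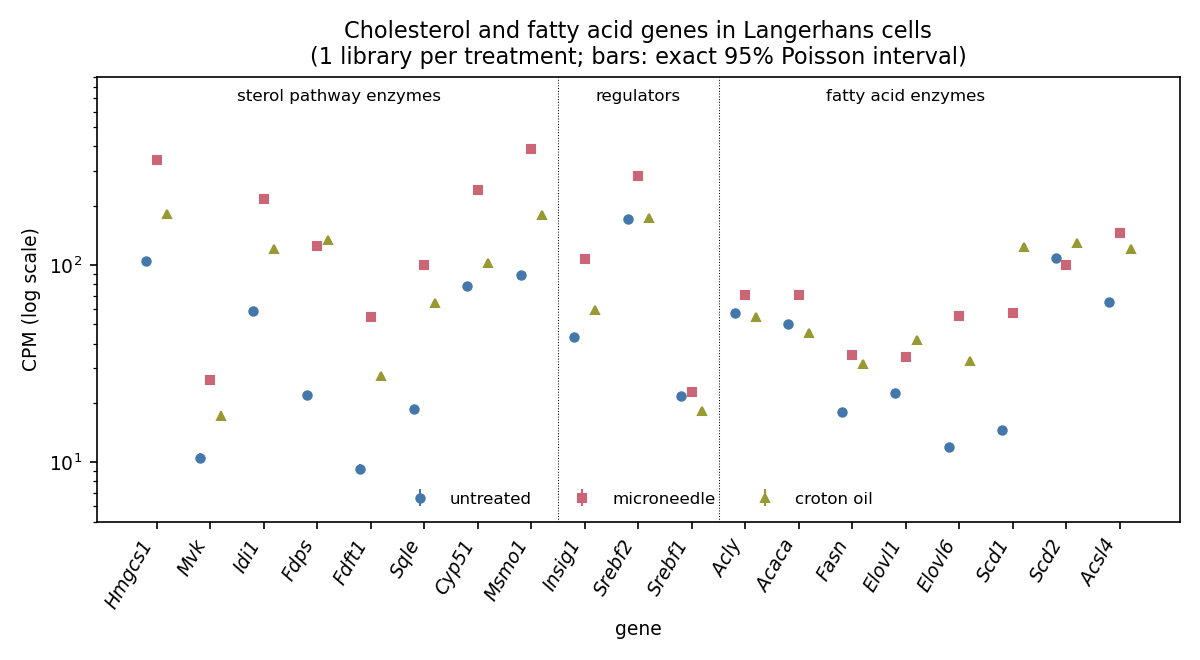
CPM (log axis) of the genes of cholesterol and fatty acid synthesis named in the text in untreated (circles), microneedle (squares) and croton oil (triangles) Langerhans cells, in pathway order, with exact 95% Poisson intervals that are mostly smaller than the symbols. From Hmgcs1 to Insig1 each microneedle value lies above the untreated one, and the croton oil values lie between them except for Fdps.

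Side by side, the croton oil levels of most sterol genes were under the microneedle ones: 179 CPM for Msmo1, 63.9 for Sqle, 181 for Hmgcs1 and 102 for Cyp51. Fdps, at 134 CPM, and Scd1, at 123 CPM, were exceptions. With 1 library per treatment these differences carry no test. Within a cell, the list summed to a median of 3 UMIs per 3000 in untreated cells (lowest decile 1, highest decile 6) and 7 in microneedle cells (2 and 17). The microneedle cells therefore spread much wider upward, while 0.850% of them and 5.68% of the untreated cells had none.

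The promoters of this list were searched for the sterol regulatory element, the sequence that SREBPs bind. RefSeq promoters (GRCm38.p6, 250 bases upstream of the start and 50 downstream) were matched for 14 of the 22 genes. The letters TCACNCCAC, on either strand and upstream of the start, occurred in 1 of the 14, in 1.23% of 5297 compared genes with a promoter and in 1.05% of all 32851 promoters. The match was in Hmgcs1, and its surroundings are printed because it is the only one in this list, on chr13:119690189-119690247, 5′ to 3′ in the sense of the gene with the motif in capitals:
Hmgcs1: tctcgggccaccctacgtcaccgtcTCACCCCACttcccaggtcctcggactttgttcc
A match is a description of letters and not of binding, and for the other 13 genes it says only that these letters are not in this window.

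The interferon response list came second. Type I interferons signal through STAT2 and IRF9, among other factors, to a set of antiviral genes, among them Isg15, a ubiquitin-like modifier, and Bst2, which tethers virus particles at the cell surface. Of 11 comparable genes 7 were at least 2-fold higher and 0 lower, against 3.82% and 1.75% of all compared genes, and the median log2 change was 1.20. However, 8 of the 11, 6 of the higher ones among them, reached 20 CPM only in the microneedle library, so that the requirement on level itself favoured gains in this count. With no such requirement 13 of the 31 listed genes were at least 2-fold higher and 0 lower, with a median of 0.94. Besides Ly6a, the higher genes among the 11 were Irf7, a transcription factor that amplifies the response (3.35 and 29.2 CPM, 2.04), Ifi27l2a (3.003 and 24.99 CPM, 1.91), Isg15 (6.11 and 35.6 CPM, 1.87), Bst2 (16.8 and 52.4 CPM, 1.40), Ly6e (140 and 328 CPM, 1.20) and Irf9 (12.5 and 30.4 CPM, 1.02). The 6 further genes counted only without the requirement were Rtp4 (2.01), Ifitm3 (1.84), Oasl2 (1.65), Xaf1 (1.37), Ifit3 (1.24) and Oasl1 (1.03), each under 20 CPM in both sets. Irf9 came under 2-fold in 3 of the 15 alternatives tried.

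Most of these levels were low, and 20 of the 31 listed genes, among them Ifit1, Mx1 and Rsad2, did not reach 20 CPM in either set. Stat2 (log2 change 0.12), Irf1 (0.24), Ifi35 (0.51) and Usp18 (0.66) were within 2-fold. The other cell classes of the microneedle library were rich in some of the same transcripts, with Isg15 at 1282 CPM in the neutrophil class and Ifi27l2a at 1401 CPM in the monocyte and macrophage class. The levels in the Langerhans cells were still 15.6 times the free-RNA level for Isg15, 27.6 times for Irf7 and 5.50 times for Ifi27l2a, the lowest ratio among the 11 compared genes. Mx1 and Rsad2, which were not compared, were within 2 times the free-RNA level. In croton oil cells Irf7 was at 8.22 CPM, Ifi27l2a at 5.85, Isg15 at 19.4 and Bst2 at 33.4. Per cell, 36.8% of untreated and 14.9% of microneedle cells had no UMI of the list after thinning, and the highest decile was 3 and 7 UMIs. The list summed to 373 CPM in untreated and 1016 CPM in microneedle cells. That sum includes Ly6a, at 4.26 and 179 CPM, and Ly6e, whose levels are given above. How far the per-cell shift rests on Ly6a and Ly6e was not tested.

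Of the 7 interferon genes with a RefSeq promoter, 3 held the letters GAAANNGAA, the core of the interferon-stimulated response element, on either strand upstream of the start, against 7.53% of compared genes with a promoter. They were Isg15 and Bst2, which were higher, and Stat2, which was not, and the sequences are printed for this contrast. They lie on chr4:156200863-156200921, chr8:71537569-71537627 and chr10:128270252-128270310 of GRCm38.p6, and are given in the sense of each gene with 1 motif in capitals (in Stat2 it is on the opposite strand). The promoter of Isg15 held 3 matches and that of Bst2 held 2, and the further ones, which overlap or follow the first, are left in lower case:
Isg15: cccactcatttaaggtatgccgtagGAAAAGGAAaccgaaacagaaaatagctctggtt
Bst2: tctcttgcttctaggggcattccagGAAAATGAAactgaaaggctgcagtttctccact
Stat2: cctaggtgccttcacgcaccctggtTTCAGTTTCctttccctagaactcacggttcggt
The motif thus occurred in genes on either side of the threshold.

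**Figure D4:**
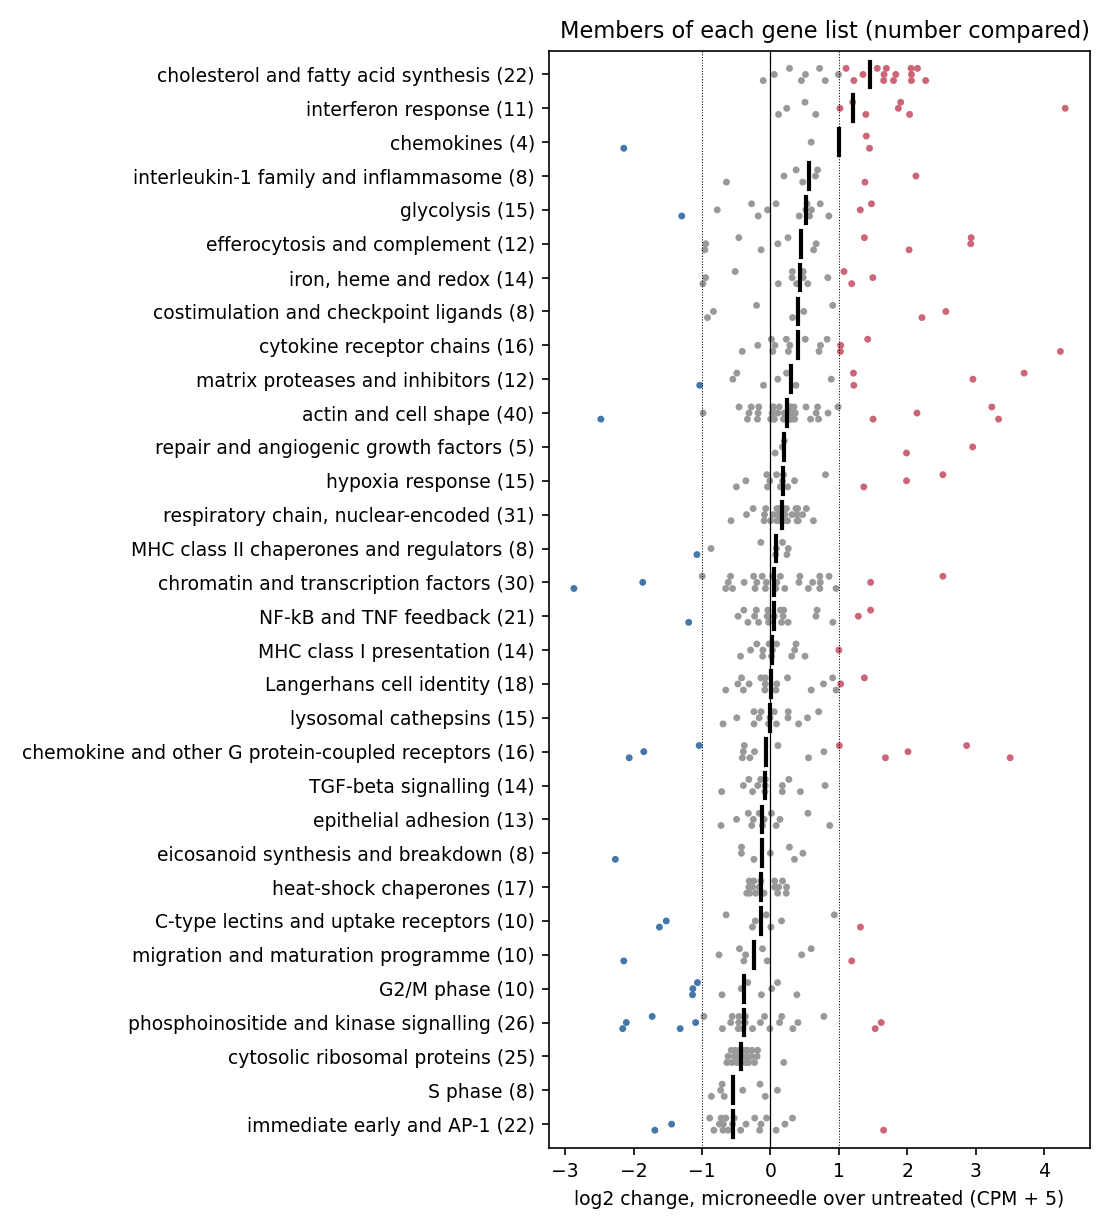
Log2 change of each compared gene of 32 lists (points; red at least 2-fold higher, blue at least 2-fold lower in the microneedle cells) with the median of the list as a black bar, ordered by median. The cholesterol and interferon lists lie at the top, and the immediate early list lies at the bottom with a median of -0.54.

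Ligands of inflammation were divided between gains and losses. Il1b, which encodes interleukin-1 beta, was at 72.3 CPM (70.8 to 73.8) and 333 CPM (329 to 336), a log2 change of 2.13, and in 9.26% and 29.7% of cells. The neutrophil class held far more of it, 8853 CPM, and the level in the Langerhans cells was 45.6 times what their free RNA would give. Casp4, an inflammatory caspase, was at 13.6 and 43.5 CPM (1.38), which makes 2 of the 8 genes of the interleukin-1 list. The chemokines Cxcl2 (233 and 625 CPM, 1.40) and Cxcl1 (17.0 and 55.2 CPM, 1.45), which attract neutrophils, were higher as well, 2 of the 4 comparable chemokines, with Ccl17 lower. Cxcl2 was at 24897 CPM in the neutrophil class, and its level in the Langerhans cells was 30.4 times the free-RNA level. Tnf went the other way, from 611 CPM (607 to 616) to 264 CPM (261 to 268), a log2 change of -1.19, and from 64.5% to 38.9% of cells. In the list of NF-kB and TNF feedback genes 2 of 21, Traf1 and Bcl2a1b, were higher, and Tnf alone was lower. Over all compared genes 3.82% were higher and 1.75% lower, beside which the counts of these 3 short lists are to be read. Casp4, Cxcl1 and Traf1 reached 20 CPM only in the microneedle library, and Ccl17 only in the untreated one.

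Of 16 cytokine receptor chains 4 were at least 2-fold higher and 0 lower, against 3.82% and 1.75% of all compared genes, with a median of 0.40. Il7r, the receptor chain for interleukin-7 and TSLP, was at 217 and 591 CPM (1.42). Csf1r, which Langerhans cells need for their upkeep by interleukin-34, was at 303 and 624 CPM (1.03), and Csf2rb, the shared chain of the GM-CSF receptor, at 182 and 375 CPM (1.02). Csf1r was under 2-fold in 4 and Csf2rb in 3 of the 15 alternatives. The interferon receptor chains Ifnar1 (0.04) and Ifngr2 (0.07) were nearly level. Among G protein-coupled receptors 5 of 16 were higher and 3 lower, against the same 3.82% and 1.75%. Of the 5 higher receptors 4 reached 20 CPM only in the microneedle library, and over all 36 listed genes 6 were higher and 3 lower. Of the 4 higher cytokine receptor chains 1, Il21r, did so. Besides Htr7, the orphan receptor Gpr171 (2.77 and 51.8 CPM, 2.87) and Gpr183, a receptor for oxysterols (100 and 419 CPM, 2.01), were higher, as were S1pr3 (1.68) and P2ry12 (1.01, under 2-fold in 6 alternatives). Besides Adgre4 and Hcar2, the prostaglandin receptor Ptger4 was lower (95.4 and 43.8 CPM, -1.04, under 2-fold in 2 alternatives).

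Genes for the uptake of dying cells gave 4 of 12 higher and 0 lower, against 3.82% and 1.75% of all compared genes, and a median of 0.45. Of the 4 higher genes C1qc and Timd4 reached 20 CPM only in the microneedle library, and over all 26 listed genes 5 were higher and 0 lower, with a median of 0.10. C1qa was at 59.7 CPM (58.3 to 61.1) and 488 CPM (484 to 492), a log2 change of 2.93, and C1qc at 0.606 and 37.9 CPM (2.94). Timd4, a receptor for phosphatidylserine, was at 4.68 and 34.5 CPM (2.03), and Mfge8 had a log2 change of 1.38. Croton oil cells held more of each of these 4 genes, with C1qa at 1522 CPM, C1qc at 184, Timd4 at 165 and Mfge8 at 2188. At the other end of this list were the lipid carrier Apoe, at 379 and 193 CPM (-0.96), and the lipid transporter Abca1, at 107 and 53.1 CPM (-0.94). The monocyte and macrophage class of the microneedle library had less C1qa than the Langerhans cells, 83.9 CPM, but more C1qc, 64.0 CPM. Of 10 genes in the list of C-type lectins and uptake receptors 2 were lower and 1 higher, with a median of -0.14. Besides Cd209d, which the list does not hold, Cd209a (22.9 and 4.06 CPM, -1.62) and Mgl2 (53.7 and 15.4 CPM, -1.52) were lower, and Clec4n was higher (17.6 and 51.2 CPM, 1.32). Clec4n reached 20 CPM only in the microneedle library, and Cd209a and Mgl2 only in the untreated one. Mgl2 in croton oil cells stood at 330 CPM, above the untreated level.

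Among matrix proteases and their inhibitors 4 of 12 were higher and 1 lower, against 3.82% and 1.75% of all compared genes. Of the 4 higher genes 3 reached 20 CPM only in the microneedle library, and over all 26 listed genes 5 were higher and 1 lower. Plaur, the urokinase receptor, was at 11.6 and 124 CPM (2.96), and Adam9 (1.22) and Serpinb9, an inhibitor of granzyme B (1.21), were higher with Timp1. Mmp9, a gelatinase, was at 152 and 71.7 CPM (-1.03), under 2-fold in 1 alternative. The growth factors Pgf (6.30 and 82.8 CPM, 2.96) and Vegfa (14.4 and 72.3 CPM, 1.99), both angiogenic, were higher, while Tgfb1 (0.18) was not. Pgf and Vegfa both reached 20 CPM only in the microneedle library. Of the T cell-directed surface molecules, Tnfrsf9 was at 7.21 and 67.3 CPM (2.57) and Cd80 at 52.4 and 262 CPM (2.22), but Cd86 (0.32) and Cd40 (-0.20) were close to level and Cd83 was at 1577 and 832 CPM (-0.92), so 2 of the 8 genes of this list were higher. Of these 2 genes Tnfrsf9 reached 20 CPM only in the microneedle library. In croton oil cells Tnfrsf9 was far higher, at 474 CPM.

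Genes of the immediate early response, which come up within minutes of a stimulus or of cell dissociation, were mostly within 2-fold, with 2 of 22 lower and 1 higher against 1.75% and 3.82% of all compared genes. The median of 22 genes was -0.54, with 18 negative and 4 positive values, and 2 genes, Jun (1893 and 693 CPM, -1.44) and Klf2 (200 and 58.5 CPM, -1.69), were at least 2-fold lower. Nr4a2, an orphan nuclear receptor, was the only one higher, at 115 and 373 CPM (1.66). Fos (-0.36), Junb (-0.43) and Egr1 (-0.16) differed less. Summed over the list a cell had a median of 76 UMIs per 3000 in untreated and 53 in microneedle cells, with deciles of 40 to 106 and 25 to 80, so the distributions overlapped widely. Heat-shock chaperones, which also respond to dissociation, had a median of -0.14 with none of 17 genes past 2-fold, and whether handling differed between the preparations was not tested.

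**Figure D5:**
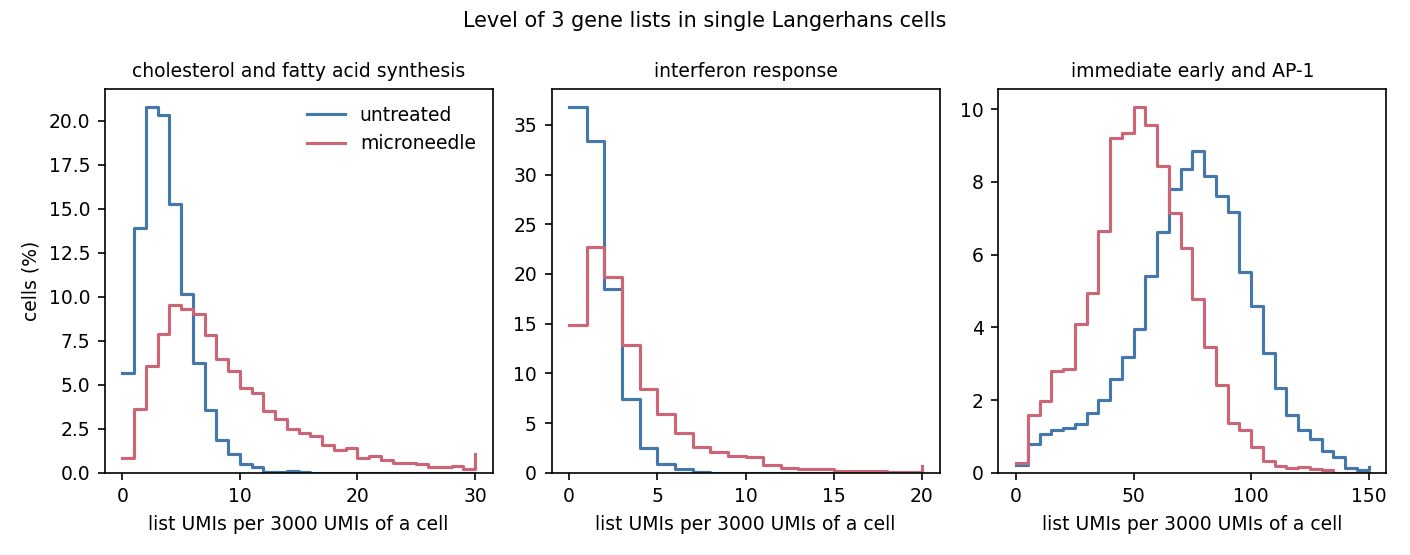
Share of Langerhans cells (vertical, %) by the summed UMIs of 3 gene lists in a cell thinned to 3000 UMIs (horizontal; the last bin also holds all higher values), in untreated (blue) and microneedle (red) cells. The cholesterol list has a median of 3 and 7 UMIs and a long upper tail in microneedle cells. In these cells the interferon list, which includes Ly6a and Ly6e, has fewer cells at 0, and the immediate early list is shifted to lower values.

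Genes that define Langerhans cells had a median log2 change of 0.00. Of 18 identity genes 2 were at least 2-fold higher (Mfge8 and Csf1r) and 0 lower, where 3.82% and 1.75% of all compared genes were, a background that holds for the other counts here too. The transcription factors Runx3 (0.08), Id2 (-0.08), Spi1 (-0.14) and Irf8 (-0.07), which the lineage depends on, were within a narrow band, while Ahr, the aryl hydrocarbon receptor, was at 398 and 252 CPM (-0.65). Epithelial adhesion genes had a median of -0.11 with 0 of 13 past 2-fold, and TGF-beta signalling genes a median of -0.08 with 0 of 14. The TGF-beta list does not hold Tgfbi or Pmepa1, which were among the 12 highest gains. Over all its 21 genes, with no requirement on level, 1 was higher and 0 lower. Among genes of antigen presentation, 1 of 14 MHC class I genes was higher (Psmb10, 1.00, under 2-fold in 8 alternatives) and 1 of 8 class II chaperones was lower (H2-Oa, 31.6 and 12.4 CPM, -1.07). Psmb10 reached 20 CPM only in the microneedle library, and H2-Oa only in the untreated one. Lysosomal cathepsins had a median of 0.00 with 0 of 15 past 2-fold.

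Of 26 genes in a mixed list of signalling genes, drawn up around phosphoinositides and kinases, 5 were lower and 2 higher, against 1.75% and 3.82% of all compared genes, with a median of -0.39. Of the lower ones Fhit, Sntb1, Pid1 and Nedd4, whose roles are given above, are neither kinases nor enzymes of phosphoinositide turnover, and the last was Plcl1, a phospholipase C-like protein (262 and 120 CPM, -1.09). The higher ones were Prkce, a protein kinase C (14.9 and 56.3 CPM, 1.62), and Pik3r5, a regulatory subunit of phosphoinositide 3-kinase gamma (111 and 330 CPM, 1.53). Fhit and Sntb1 reached 20 CPM only in the untreated library, and Prkce only in the microneedle one. The list was drawn up with earlier results of these data known, and Fhit, Sntb1 and Pid1 are among the 12 lowest genes. Its count beside the share of all compared genes therefore says nothing about signalling genes as a group. In glycolysis Pfkfb3, which makes the activator of phosphofructokinase (52.1 and 154 CPM, 1.48), and Eno1 (33.3 and 90.3 CPM, 1.32) were higher, and the glucose transporter Slc2a3 was lower (38.3 and 12.7 CPM, -1.30). Slc2a3 reached 20 CPM only in the untreated library. Nuclear-encoded respiratory chain genes had a median of 0.17 with 0 of 31 past 2-fold. Cytosolic ribosomal protein genes had a median of -0.43 with 24 of 25 negative, and none reached 2-fold.

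Genes of the cell cycle were few at these levels. The S phase list had a median of -0.54 with 0 of 8 genes past 2-fold. In the G2/M list 3 of 10 genes were lower, against 1.75% of all compared genes. They were Cks2 (-1.14), Top2a (-1.13) and Kif11 (-1.07), while Mki67, the usual proliferation marker, was at 60.3 and 65.3 CPM (0.11). Top2a and Kif11 reached 20 CPM only in the untreated library, and over all 30 listed genes 5 were lower and 0 higher. Leaving out cells with a Mki67 or Top2a UMI took Cks2 (-0.97) and Kif11 (-0.71) under 2-fold and left 250 genes higher and 128 lower. That step kept 6086 of 9345 untreated and 2940 of 5462 microneedle cells. It counted any UMI without thinning, in libraries of unequal depth, and Mki67 and Top2a are themselves in the G2/M list.

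The remaining lists held few changes each, and their counts are to be read against the 3.82% higher and 1.75% lower among all compared genes. Of 40 genes of actin and cell shape 4 were higher, among them Capg, which caps actin filaments (10.3 and 62.6 CPM, 2.14), and 1 (Prex2) was lower, with a median of 0.24. Of the 4 higher genes 3 reached 20 CPM only in the microneedle library, and Prex2 only in the untreated one. The hypoxia list had 3 of 15 higher, with Bhlhe40, a circadian and hypoxia-induced repressor, at 5.12 and 53.2 CPM (2.52) and Mxi1, an antagonist of Myc, at 121 and 320 CPM (1.37), and a median of 0.18. Of these 3 genes Bhlhe40 and Vegfa reached 20 CPM only in the microneedle library. Of 30 chromatin and transcription factor genes 2 were higher, Bhlhe40 and Prdm1 (49.3 and 145 CPM, 1.47), and 2 lower, Hdac9 and Mef2c. Bhlhe40 reached 20 CPM only in the microneedle library, and Hdac9 and Mef2c only in the untreated one. Iron, heme and redox genes gave 3 of 14 higher, the metallothioneins Mt2 (1.50) and Mt1 (1.08) and the glutathione peroxidase Gpx1 (1.19). Of these Mt2 reached 20 CPM only in the microneedle library. In the migration and maturation list 1 of 10 was higher, the tetraspanin Cd63 (303 and 698 CPM, 1.19), and 1 lower, Ccl17, which reached 20 CPM only in the untreated library. Of 8 eicosanoid genes Hpgd was the only one past 2-fold.

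Single cells were next compared on the 12 highest and 12 lowest genes together, as a description, since these genes had been chosen on the same cells. After thinning, at least 3 of the 12 higher genes were seen in 0.357% of 9245 untreated and 55.8% of 5412 microneedle cells, and at least 3 of the 12 lower genes in 66.6% and 7.11%. The untreated pattern, at most 1 higher and at least 3 lower genes, was found in 64.7% of untreated and 4.07% (3.55 to 4.63) of microneedle cells, 220 in number. Of the microneedle cells 9.13% showed none of the 12 higher genes, against 73.2% of the untreated ones. The opposite pattern, at least 3 higher and at most 1 lower gene, was found in 0.141% of untreated and 47.9% of microneedle cells.

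Within the microneedle library, cells with and without a Ly6a UMI were set side by side for 9 other genes. Of 1492 cells with Ly6a, 29.1% (26.8 to 31.5) had Timp1, against 12.5% (11.5 to 13.6) of 3920 cells without it. C1qa was seen in 76.7% and 59.2% of these cells, Il21r in 45.3% and 30.4%, and Il1b in 36.3% and 27.3%. Conversely Hpgd was seen in 13.3% of cells with Ly6a and 21.1% without, and Cd207 in 58.9% and 68.0%. The intervals overlapped for Tnf, at 38.2% and 39.1%, for Hdac9, at 1.94% and 2.45%, and for Mef2c, at 2.61% and 3.04%. All cells here had 3000 UMIs, so depth per cell was the same. They came from 1 library, so these shares describe that library, and cells are not replicates of a treatment.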

How the data were processed

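The authors deposited counts of UMIs per gene and cell barcode, not normalized, for barcodes called as cells by Cell Ranger 8.0.0, per the file headers. The submitters' processing notes name Cell Ranger 8.0 and GRCm39. Libraries were made with the Chromium Single Cell 3' kit v3.1, per the labels. Whether intronic reads were counted is not given in the sources used here. A 3' assay counts molecules whatever their length, and free RNA enters every droplet.

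Cells were selected by the rule given in the report, UMIs were summed per library and expressed as CPM, and changes were computed with a pseudocount of 5 CPM for genes with at least 20 CPM in either library. With 1 library per group no test was possible, and intervals are exact Poisson or binomial at 95%. Cells were thinned to 3000 UMIs for shares. A gene was read as background where its level was at most 2 times the carry-over from a class of at least 50 cells; of the genes past 2-fold this concerned 3 lower ones (Krt10, which the rule also uses, Krt2 and Krtdap). Scrublet in scanpy 1.11.5 marked 5 untreated and 4 microneedle cells by its automatic threshold, under 0.5%, so doublets were removed only as an alternative. Python 3.11.15, numpy 2.4.6, scipy 1.17.1, pandas 2.3.3, R 4.3.3 and edgeR 4.0.16 (for TMM scaling) were used, and the comparison code was tested on simulated data. Of 6696 compared genes 6688 had a position in GENCODE M39.

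The cell rule, the 40 gene lists and the genes to be named were chosen with earlier results of these data known. Named were the 12 highest and 12 lowest genes, leaving out those the selection uses, mitochondrial genes and background, the 5 largest gains and losses in share, the 2 members of each list furthest up and down, and 15 preset genes. Other list members, the share threshold of 10 points the per-cell groupings, the counts at 8-fold with less or no CPM added and the list counts without the filter were chosen after their values were seen. The alternatives were other pseudocounts, filters, scalings, doublet and depth limits and cell rules. Some members of the lists, and 1 further Langerhans cell marker that was checked, are not reported here by name, though the counts, sums and medians of their lists include them.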

Additional observations from a re-analysis of the deposited data

Results flagged for a closer look

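The feature lists contained 4 transgene sequences that no label mentions, and 1 of them gave a signal outside the comparison. mCherry, a red fluorescent protein, had 8897 UMIs in the microneedle library, 4352 in the untreated and 25331 in the croton oil library, over all deposited cells. It stood out because the microneedle level per UMI was above that of the untreated library. Only 200 of the 8897 microneedle UMIs and 144 of the 4352 untreated UMIs were in the selected Langerhans cells, at 1.98 and 1.21 CPM. In the 40 microneedle keratinocytes it reached 4040 CPM and was present in 95.0% of cells, and in the 62 untreated keratinocytes 380 CPM and 51.6%. The eGFP sequence had 157 microneedle and 179 untreated UMIs, and tdTomato and creER had 0 in every library. Which cells or animals would carry these sequences is not stated in the labels used here.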

How the results depend on the processing

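Over 15 alternatives the number of higher genes ranged from 183 to 330 and that of lower genes from 68 to 159, the lowest of both when 50 CPM were required. None of the 373 genes past 2-fold took the opposite sign in any of them. Of these 53 came under 2-fold in at least 1 alternative, Ccl17 among them, whose log2 change ranged from -3.37 to -0.66. The share of higher genes among those past 2-fold was 68.6%, 65.2% with TMM scaling and 62.9% with totals that left out mitochondrial and ribosomal protein genes. The median of the cholesterol list ranged from 1.17 to 1.66 and that of the interferon list from 0.94 to 1.34. Medians near 0 changed sign in some alternatives, namely those of MHC class I and II, costimulation, migration, Langerhans cell identity, C-type lectins, NF-kB, G protein-coupled receptors, cathepsins and transcription factors. The share of cells passing the rule was 95.7% in the untreated library at 5% mitochondrial UMIs, 88.4% untreated and 75.2% microneedle with the rule applied to thinned cells, 92.6% and 75.9% with Cd207 required, and 80.9% microneedle without the condition on Ccr7; the cause was not tested. Shares of cells with a UMI of a gene also depended on the depth of thinning. For Pde4b they were 28.2% of untreated and 65.8% of microneedle cells at 3000 UMIs, and 36.5% and 74.3% at 5000 UMIs. No paired analysis was possible because there was 1 library per group. With single libraries, depth limits counting error only, and the spread between animals could not be measured.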

Other observations

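Several genes outside the lists differed by wide margins, and they were picked after their values were seen. Among abundant genes, Map4k4, a kinase of the stress pathway, was at 775 and 2549.8 CPM in untreated and microneedle cells (log2 change 1.71) and Vav3, a guanine nucleotide exchange factor, at 383 and 1215 CPM (1.65). Ifitm2 was at 172 and 628 CPM (1.84). Fgl2 (18.6 and 155 CPM, 2.76), Aif1 (11.6 and 51.1 CPM, 1.76), Cfp, which encodes properdin (58.1 and 167 CPM, 1.45), and Cd14 (20.6 and 68.0 CPM, 1.51) were also higher. These genes form no fixed list, and the 16 monocyte and macrophage markers summed lower in the microneedle cells, at 123 and 86.8 CPM. The part of other cells in the levels of Fgl2, Aif1, Cfp and Cd14 was not tested. Bcl2l11, which encodes the death protein Bim, was at 60.6 and 213 CPM (1.74), and Morrbid, a long noncoding RNA from the same region, at 3.86 and 38.4 CPM (2.29). Pmvk and Hsd17b7, sterol enzymes that the cholesterol list did not hold, were at 110 and 320 CPM (1.50) and at 5.61 and 26.8 CPM (1.58).

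Lower genes outside the lists included Kynu, the kynureninase of tryptophan breakdown (213 and 84.4 CPM, -1.29), Ffar2, a receptor for short-chain fatty acids (150 and 54.7 CPM, -1.38), and the nonclassical MHC genes H2-M2 (1426 and 645 CPM, -1.14) and H2-M5 (208 and 67.4 CPM, -1.56). Pde4d was at 1032 and 479 CPM (-1.10), while its relative Pde4b was higher. Pcdh7, a protocadherin, was at 1292 and 584 CPM (-1.14).

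The genes past 2-fold were more often long. Of those with a position, 24.6% of the higher and 28.7% of the lower genes spanned at least 100 kb, against 17.4% of all compared genes, although the medians of 37.9 and 37.5 kb were near the overall 34.2 kb. Long noncoding RNAs made up 6.25% of the higher and 12.9% of the lower genes, against 3.45% of all.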
